A study of Mus musculus with 278 samples.

Results

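To describe the transcription regulators of the luminal lineage cell by cell, the reads of 10 genes were followed through single-cell libraries of the mouse mammary gland. The genes, Elf5, Ehf, Elf3, Foxa1, Gata3, Cited1, Esrrb, Tbx3, Stat5a and Stat5b, were chosen by name as luminal regulators, with earlier results of these data known. All 10 were among the 25135 genes kept of the 27179 gene IDs listed. All cells came from mice of the FVB/NJ strain, carried no treatment or engineered allele according to the labels, and were isolated on a Fluidigm C1 chip, where a cell is held in its own chamber and its RNA is copied to cDNA there. Adult luminal and adult basal cells had been sorted from adult glands by the surface proteins CD24 and CD29 after removal of blood and endothelial cells, whereas pregnancy cells were total epithelium from mid-pregnant glands and were not sorted by lineage. Of 278 libraries, the 222 with 50000 or more reads in kept genes were used, which were 41 of 43 adult luminal, 85 of 112 adult basal and 96 of 123 pregnancy cells.

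A library held the RNA of a single cell and the labels name no animals, so a group was 1 sample, no test between groups was possible and no difference has a replicate check. Stage and preparation cannot be told apart. Intervals are exact 95% intervals (Clopper-Pearson for shares of cells, Poisson for summed reads, conditional for ratios) and cover counting error only, since reads from amplified cDNA are not independent molecules. Median depth was 637857 reads in adult luminal, 378479 in adult basal and 215202 in pregnancy cells. Detection therefore means 1 or more reads after every cell had been thinned to 50000 reads. At that depth the median cell had 3451 genes in adult luminal, 2261 in adult basal and 3262 in pregnancy cells, and the part of this difference in the shares was not tested. Levels are CPM, the reads of a gene scaled to a common total of kept-gene reads, either in a cell or summed over the cells of a group.

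Luminal cells line the ducts and alveoli and include hormone-sensing cells, which carry the receptors for oestrogen, progesterone and prolactin, and progenitors that give rise to the milk-secreting alveolar cells of pregnancy. Elf5, Ehf and Elf3 are epithelial members of the ETS family, and Elf5 drives alveolar differentiation downstream of prolactin. Gata3 maintains the luminal fate, Foxa1 opens chromatin for the oestrogen receptor, Cited1 is a co-activator of that receptor, Esrrb is an orphan nuclear receptor and Tbx3 is a T-box factor needed for mammary gland formation. Stat5a and Stat5b are paralogues that carry the prolactin signal from the membrane to the nucleus.

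The genes lay on 6 chromosomes of the GRCm38.p6 assembly, the same build as mm10. Elf5 (chr2:103412098-103450989), Ehf (chr2:103263431-103303275) and Gata3 (chr2:9857078-9887953) were on chromosome 2, Stat5a (chr11:100859351-100885169) and Stat5b (chr11:100780731-100859004) were neighbours on chromosome 11, and Foxa1 (chr12:57540628-57548029) and Esrrb (chr12:86361117-86521628) were on chromosome 12. Elf3 (chr1:135253574-135258472), Tbx3 (chr5:119670534-119684724) and Cited1 (chrX:102247378-102252181) were each alone on a chromosome. In GENCODE M21, exons of Elf3, Gata3, Tbx3 and Stat5a overlapped exons of 1 or 2 other genes, among them the antisense RNA Tbx3os1 and, on the opposite strand of Stat5a, Stat3. The library kit does not mark strand, so reads of overlapping genes cannot be told apart. Of the 50-base windows of the longest transcript, 10.8% for Stat5a and 11.8% for Stat5b also occurred in the other paralogue, against 0.498% (in other genes) for Elf5 and 0% for the remaining 7 genes.

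The RefSeq promoter table of GRCm38.p6 held 8 of the 10 genes, all but Ehf and Tbx3. The 250 bases before the outermost listed start are printed for Elf5 and for Cited1, Foxa1 and Esrrb, because Cited1, Foxa1 and Esrrb had no read in any adult basal cell and Elf5 was found in separate cells from most of their pregnancy reads. Capitals mark matches on either strand to the letters of 5 motifs. For GATA factors the letters searched were AGATAA and for ETS factors they were GGAAGT. For forkhead factors they were TGTTTA, for nuclear receptor half-sites they were AAGGTCA and for STAT factors they were TTCNNNGAA.
Elf5 promoter, chr2:103411848-103412097, plus strand: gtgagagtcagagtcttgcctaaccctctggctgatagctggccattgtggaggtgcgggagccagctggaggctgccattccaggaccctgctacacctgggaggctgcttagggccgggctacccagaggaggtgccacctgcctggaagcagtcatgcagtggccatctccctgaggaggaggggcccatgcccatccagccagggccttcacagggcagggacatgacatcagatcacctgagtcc
Cited1 promoter, chrX:102252182-102252431, minus strand: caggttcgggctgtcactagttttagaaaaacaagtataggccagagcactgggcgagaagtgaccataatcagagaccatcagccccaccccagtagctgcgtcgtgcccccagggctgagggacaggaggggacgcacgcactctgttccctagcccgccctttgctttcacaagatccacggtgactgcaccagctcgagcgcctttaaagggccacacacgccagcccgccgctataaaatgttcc
Foxa1 promoter, chr12:57546112-57546361, minus strand: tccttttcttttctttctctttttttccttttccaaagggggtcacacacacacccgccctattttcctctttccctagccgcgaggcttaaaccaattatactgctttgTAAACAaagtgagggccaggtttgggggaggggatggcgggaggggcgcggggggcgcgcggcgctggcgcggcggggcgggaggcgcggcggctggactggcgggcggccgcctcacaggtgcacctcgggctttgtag
Esrrb promoter, chr12:86360867-86361116, plus strand: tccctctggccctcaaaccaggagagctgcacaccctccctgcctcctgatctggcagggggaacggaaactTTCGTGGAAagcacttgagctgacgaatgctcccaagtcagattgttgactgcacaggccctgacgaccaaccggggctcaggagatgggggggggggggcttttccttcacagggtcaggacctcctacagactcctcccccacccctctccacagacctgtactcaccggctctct
The Foxa1 stretch lay inside the gene coordinates given above, whereas those of Elf5, Cited1 and Esrrb lay directly outside theirs. The Foxa1 stretch held 1 forkhead match and the Esrrb stretch 1 STAT match, and the printed Elf5 and Cited1 stretches held none of the 5 motifs. At a listed inner start of Cited1, chrX:102250777-102251026 held 1 ETS and 1 half-site match. The remaining inner stretches of Cited1, Elf5 and Esrrb held none. Among the 32536 distinct promoter stretches of the same length in the table, 12.0% held the forkhead letters, 7.04% the STAT letters, 9.97% the GATA letters, 19.8% the ETS letters and 4.09% the half-site letters. These matches describe letters only, and which start the cells used was not examined.

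In adult glands, Cited1, Foxa1 and Esrrb were found in luminal cells and had 0 reads in all 85 basal cells. After thinning, Cited1 was detected in 33 of 41 adult luminal cells (80.5%, 65.1 to 91.2), Foxa1 in 20 (48.8%, 32.9 to 64.9) and Esrrb in 10 (24.4%, 12.4 to 40.3). For each of these genes, 0 of 85 basal cells allowed a share of up to 3.53% if 3 cells are taken as the limit, and 4.25% by the Clopper-Pearson interval. Ehf was detected in 26 of 41 luminal cells (63.4%, 46.9 to 77.9) and in 1 basal cell (1.18%, 0.0298 to 6.38). Elf5 was rare in both adult sorts, with 6 luminal cells (14.6%, 5.57 to 29.2) and 1 basal cell. The plot of detection by group shows these shares together.

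**Figure D1:**
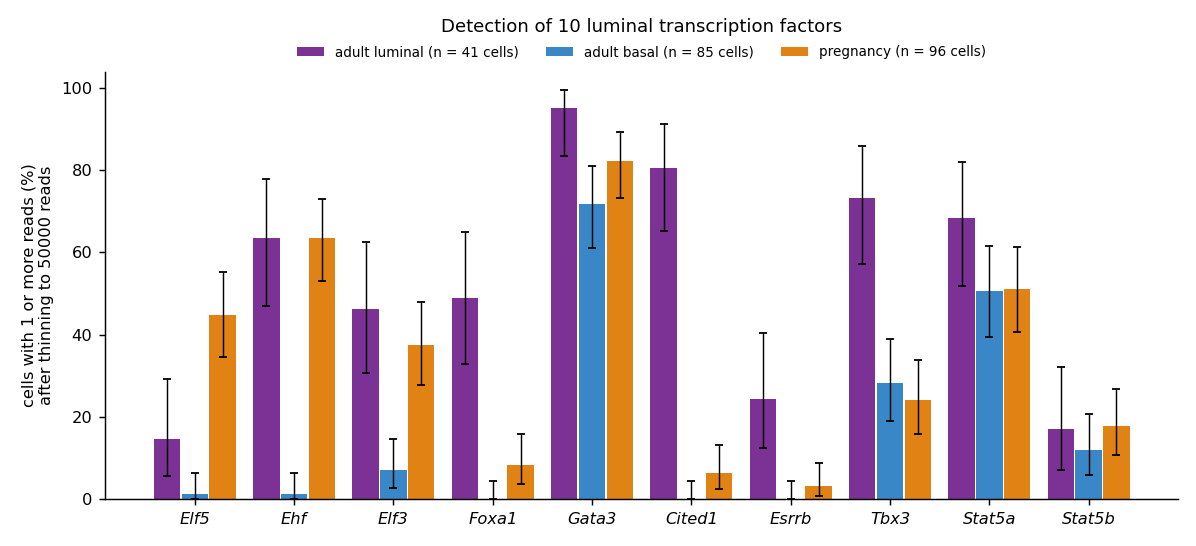
Share of cells (%, y axis) with 1 or more reads of each gene after thinning to 50000 reads, in adult luminal (n = 41), adult basal (n = 85) and pregnancy cells (n = 96); error bars are exact 95% binomial intervals. Cited1, Foxa1 and Esrrb stand at 0 in adult basal cells, Elf5 is highest in pregnancy cells (44.8%) and Gata3 is above 70% in every group.

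Gata3, Tbx3, Stat5a and Stat5b were found in both adult sorts. Gata3 reads were present in 39 luminal cells (95.1%, 83.5 to 99.4) and in 61 basal cells (71.8%, 61.0 to 81.0). Tbx3 was detected in 30 luminal cells (73.2%, 57.1 to 85.8) and 24 basal cells (28.2%, 19.0 to 39.0), and Elf3 in 19 luminal cells (46.3%, 30.7 to 62.6) and 6 basal cells (7.06%, 2.63 to 14.7). Of luminal and basal cells, 68.3% (51.9 to 81.9) and 50.6% (39.5 to 61.6) had Stat5a. Stat5b was detected in 17.1% (7.15 to 32.1) and 11.8% (5.79 to 20.6). Without thinning, Elf5, Elf3 and Foxa1 had reads in 12, 28 and 28 of the 41 luminal cells, and Cited1, Foxa1 and Esrrb stayed at 0 in basal cells.

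Set per gene length, Cited1 stood highest in adult luminal cells. In RPKM (the summed CPM divided by the gene's length), the order was Cited1 (912), Gata3 (208), Foxa1 (87.8), Ehf (78.2), Elf3 (71.1), Tbx3 (43.1), Stat5a (21.1), Elf5 (14.7), Esrrb (4.04) and Stat5b (2.81). In adult basal cells the order on the same scale opened with Gata3 (90.7) and Stat5a (80.1), followed by Tbx3 (14.6), Elf3 (13.4), Stat5b (7.22), Elf5 (3.70) and Ehf (0.0447). In pregnancy cells it ran Gata3 (73.7), Ehf (52.7), Elf3 (40.0), Elf5 (24.0), Stat5a (15.3), Cited1 (11.7), Tbx3 (4.40), Stat5b (3.67), Foxa1 (2.31) and Esrrb (0.476). With cells weighted equally, pregnancy Cited1 was at 33.9 in place of 11.4 CPM and Gata3 at 318 in place of 237 CPM, so the pregnancy order depends on the weight of single cells. With 1 sample a group, whether neighbours in these orders differ could not be tested.

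The level of each gene varied widely from cell to cell. Cited1 ranged from 0 through a median of 573 to 3026 CPM in single adult luminal cells, and Gata3 from 2.85 through 487 to 3067 CPM, with Gata3 reads in all 41 cells. Tbx3 had a median of 118 and a highest value of 874 CPM, and it was either at 0 or at 38.5 CPM and above. Ehf had a median of 59.3 and reached 2172 CPM, Foxa1 had a median of 5.91 and reached 1674 CPM, and Elf3 had a median of 13.6 and reached 795 CPM. Stat5a had a median of 32.2 CPM, and the median cell had no read of Elf5, Esrrb or Stat5b. A single luminal cell carried 40.1% of all Elf5 reads (adult luminal cell 17, at 1713 CPM), and adult luminal cell 38 carried 58.0% of the Stat5b reads.

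**Figure D2:**
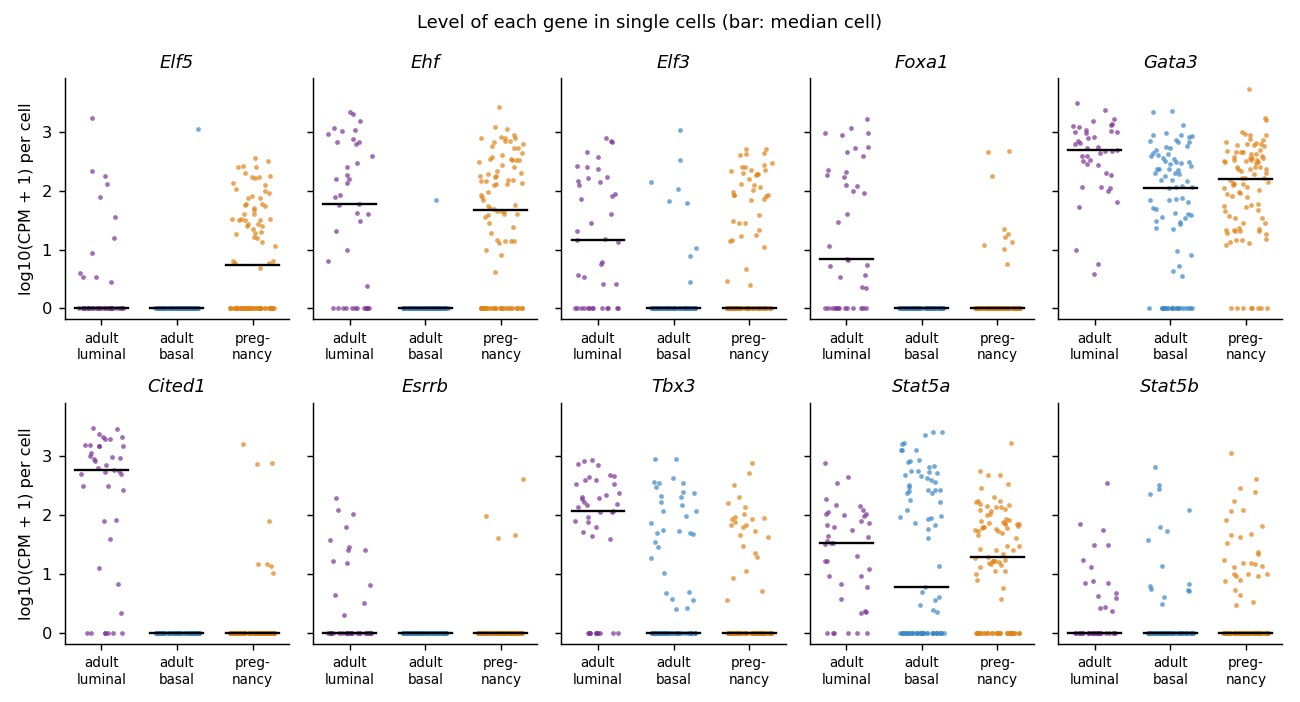
Level of each gene in single cells as log10(CPM + 1) (y axis) in adult luminal, adult basal and pregnancy cells; each point is 1 cell and the bar is the median cell. Basal points for Foxa1, Cited1 and Esrrb all sit at 0, and Tbx3 in adult luminal cells has no point between 0 and 38.5 CPM.

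Summed over cells, 5 of the 10 genes were 4-fold or more higher in adult luminal than in adult basal cells, beside 22.6% of all 14558 genes compared, and 0 of 10 were 4-fold or more lower, beside 14.6%. The median log2 ratio was 2.20 over the 10 genes and 0.34 over all genes compared. Because the genes were chosen as luminal regulators, these values describe the choice and are no support for it. Cited1 stood at 889 CPM (877 to 901) in luminal cells and 0 in basal cells, a log2 difference of at least 13.37 against a floor of 3 reads over the group. For Foxa1 (279.9 CPM) and Esrrb (18.7 CPM) the bounds were at least 11.70 and at least 7.79 on the log2 scale. Ehf differed by 10.77 (9.73 to 12.09), from 343 to 0.196 CPM, and Elf3 by 2.41 (2.31 to 2.51), from 142 to 26.8 CPM, or by 4.04 without adult basal cell 80. Elf5, at 33.1 against 8.31 CPM, lay just under the threshold with a log2 ratio of 1.99 (1.80 to 2.19). All 297 basal Elf5 reads came from adult basal cell 60, and without it the Elf5 log2 ratio was at least 8.61. Without adult luminal cell 17 it was 1.26.

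The remaining genes differed by less. Gata3 was at 669.9 CPM in luminal and 291 CPM in basal cells, a log2 ratio of 1.20 (1.17 to 1.24), and Tbx3 at 219 and 74.0 CPM, a log2 ratio of 1.56 (1.50 to 1.63). Stat5a had more summed reads in basal cells, 312 against 82.1 CPM (log2 ratio -1.92, -1.99 to -1.86), although it was detected in a smaller share of them, so no order is read from the share. It was past 4-fold lower in luminal cells with TMM factors (-2.22) and without adult luminal cell 7 (-2.12), but not without adult basal cell 17 (-1.80). In cells with a Stat5a read, the median level was 269.6 CPM in basal and 42.8 CPM in luminal cells. The Stat5b log2 ratio of -1.36 (-1.53 to -1.20) rested on adult basal cell 13, which held 59.3% of the basal reads, and was -0.12 without that cell and -2.58 without adult luminal cell 38.

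A few basal cells carried a luminal ETS factor. Elf5 was found in adult basal cell 60 (297 reads, 1138 CPM), Ehf in adult basal cell 50 (7 reads, 69.5 CPM) and Elf3 in 9 cells before thinning, from 1.81 to 1064 CPM, with 68.2% of the Elf3 reads in adult basal cell 80. Each of these 11 cells had 9 or 10 of 10 basal markers and at most 5 of 10 luminal keratin, claudin and surface markers, and had reads of only 1 of Elf5, Ehf, Elf3, Foxa1, Cited1 and Esrrb. Basal lineage markers, which did not define the sorts, mostly went with their labels. Acta2, a smooth muscle actin of basal cells, had reads in all 85 basal cells but in only 2 luminal cells after thinning. The basal keratin Krt5 was found in 76 basal cells and 0 luminal cells, and the basal keratin Krt14 in 83 and 8, at 3154 and 58.8 CPM. The luminal keratin Krt8 was found in 40 of 41 luminal cells and also in 61 of 85 basal cells, at 1111 and 232 CPM. Adult luminal cell 35 was an exception with 9 basal and 9 luminal markers. It had 690 Cited1 and 37 Tbx3 reads and no Elf5, Ehf, Elf3 or Esrrb read, and leaving it out left the count of 5 genes past 4-fold as it was.

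Within the adult luminal sort, Tbx3 divided the cells by their hormone-sensing markers without overlap. The 30 cells with Tbx3 detected 6 to 10 of 10 mature luminal markers (the hormone receptors Prlr, Pgr and Esr1, with Areg, Ly6d, Cxcl15, Stc2, Cadps2, Ptn and Wnt4), and the 11 cells without it detected 0 to 5. This split was noticed after the values were seen, and median depth before thinning was 669230 and 405324 reads. Cited1 was present in 29 of the 30 Tbx3 cells and in 4 of the other 11. Foxa1 was present in 19 and 1, and Esrrb in 10 and 0. Ehf was present in 17 of the 30 Tbx3 cells and in 9 of the 11 without Tbx3. By the 10 luminal progenitor markers (Kit, Aldh1a3, Cd14, Cd55, Csn3, Kcnn4, Plb1, Lcn2, Trf and Bglap3), the 26 cells with Ehf had a median of 6 (1 to 10) and the 15 without it a median of 2 (0 to 7). The 6 cells with Elf5 had 5 to 7 progenitor markers and the 35 without it 0 to 10.

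**Figure D3:**
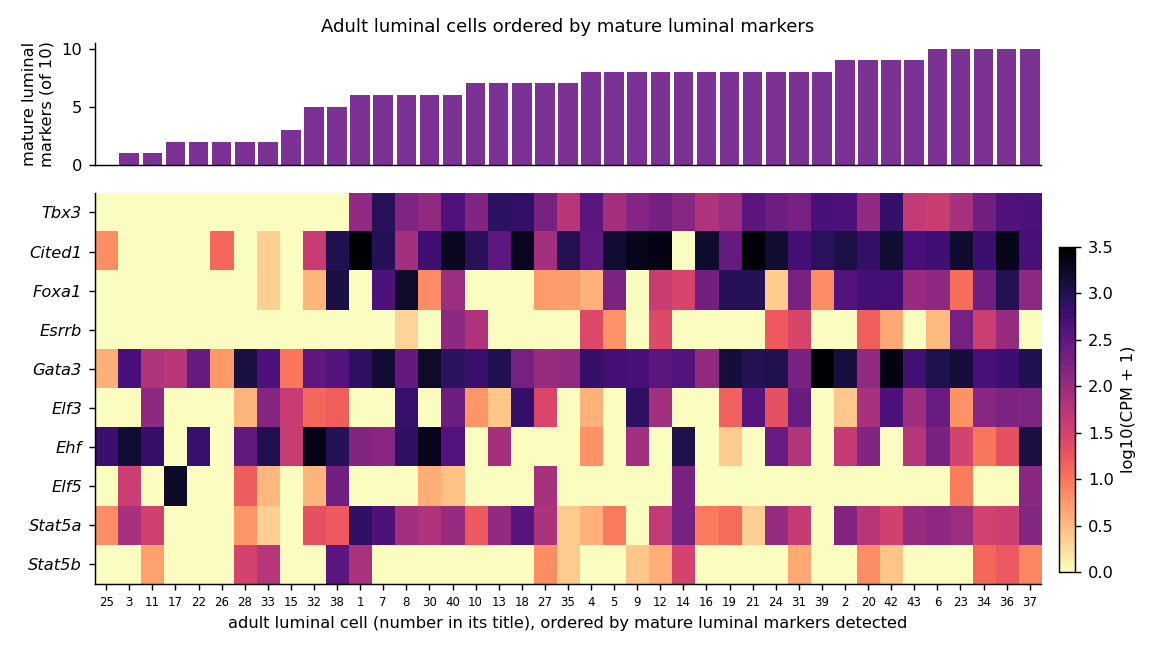
The 41 adult luminal cells (columns, numbered as in their titles) ordered by the number of 10 mature luminal markers detected after thinning (bars, upper y axis), with the level of each gene as log10(CPM + 1) before thinning (colour scale). Tbx3 is at 0 in the 11 leftmost cells (0 to 5 markers) and above 0 in the 30 others (6 to 10 markers), whereas Gata3 is above 0 in all 41.

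Pairs of genes were counted in thinned adult luminal cells and set beside the product of their shares. Cited1 and Tbx3 were both present in 29 cells (product 24.1), with 4 cells of Cited1 alone, 1 of Tbx3 alone and 7 of neither. Foxa1 and Cited1 were both present in 19 cells (product 16.1), and all 10 cells with Esrrb also had Cited1 and Tbx3. Foxa1, Cited1 and Esrrb were all present in 7 cells, and 34 cells had at least 1 of them. Elf5 shared 0 cells with Esrrb (product 1.46) after thinning and 2 cells before (product 4.10), and shared 3 cells with Cited1 (product 4.83). Elf5 and Ehf were both present in 4 cells (product 3.80). Ehf and Stat5a were both present in 23 cells (product 17.8) after thinning and in 26 before (product 24.8). The 7 cells with Stat5b all had Stat5a, although the paralogues share part of their sequence.

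The genes whose levels ran most like each regulator were ranked by Pearson r of log2(CPM + 10) over the 41 adult luminal cells, among 5770 genes. These cells came from 1 sample and differ in depth, so the values are a description. Cited1 ran with Wfdc2 (0.870), Ptn (0.868) and Areg (0.808), and Tbx3 with Ptn (0.845), Prlr (0.830) and Fgfr2 (0.800). Ptn, Areg and Prlr are also on the list of mature luminal markers. Ehf ran with Wfdc18 (0.782) and Ogfrl1 (0.712). For Foxa1, Gata3, Elf3, Esrrb and Stat5a the highest r was lower, at 0.661 (Ipo9), 0.655 (2410006H16Rik), 0.655 (Diablo), 0.685 (Slc29a1) and 0.590 (Ppp3r1). Elf5 and Stat5b were detected in fewer than 20% of the cells and were not ranked. Between members, r was 0.729 for Cited1 and Tbx3, 0.561 for Gata3 and Tbx3, and -0.409 for Ehf and Cited1.

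In pregnancy cells Elf5 was common, and Foxa1, Cited1 and Esrrb were rare. Elf5 was detected in 43 of 96 cells (44.8%, 34.6 to 55.3), Ehf in 61 (63.5%, 53.1 to 73.1), Elf3 in 36 (37.5%, 27.8 to 48.0) and Gata3 in 79 (82.3%, 73.2 to 89.3). With 5 or more reads required, Elf5 was detected in 17 of 96 pregnancy cells beside 5 of 41 adult luminal cells. With 1 read, Cited1 was detected in 6 cells (6.25%, 2.33 to 13.1), Foxa1 in 8 (8.33%, 3.67 to 15.8), Esrrb in 3 (3.12%, 0.649 to 8.86) and Tbx3 in 23 (24.0%, 15.8 to 33.7). Elf5 in single cells ranged from 0 through a median of 4.39 to 361 CPM, and Ehf from 0 through 45.7 to 2657 CPM. At least 3 of 10 cycling markers were found in 8 adult luminal, 2 adult basal and 25 pregnancy cells, and at least 3 immune, endothelial or fibroblast markers in 6, 2 and 22, whose part in these shares was not tested. Milk genes took 22.8% of the summed reads of pregnancy cells, 1.25% of adult luminal and 0.000680% of adult basal reads.

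Because these cells were not sorted, they were classed by markers that include none of the 10 genes. A cell was luminal-marked with 6 or more of 10 luminal markers and under 4 of 10 basal markers, basal-marked in the opposite case, both-marked with both and unmarked with neither. The minimums were set from the adult sorts after the data were seen. There were 25 luminal-marked, 38 basal-marked, 27 both-marked and 6 unmarked cells, with 8 cells 1 marker under the luminal minimum and 15 at it. Both-marked cells had the highest median depth (292698 reads, against 241525 in luminal-marked and 137276 in basal-marked cells). The authors had inspected capture sites by eye, no doublet caller was run here, and whether these chambers held more than 1 cell was not tested.

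Among luminal-marked pregnancy cells, Ehf was detected in 24 of 25 (96.0%, 79.6 to 99.9), Elf3 in 18 (72.0%, 50.6 to 87.9) and Elf5 in 15 (60.0%, 38.7 to 78.9), an interval for Elf5 that did not overlap that of adult luminal cells. Cited1 was detected in 3 luminal-marked cells (12.0%, 2.55 to 31.2) and Tbx3 in 4 (16.0%, 4.54 to 36.1), beside 80.5% and 73.2% of adult luminal cells. Cells are not replicates of a stage, so these intervals do not compare the groups. Among basal-marked cells, Ehf was detected in 13 of 38 (34.2%, 19.6 to 51.4), against 1 of 85 adult basal cells, and Elf5 in 5 (13.2%, 4.41 to 28.1). With 5 or more reads required, Ehf was detected in 6 of 38 and 0 of 85. After thinning, the median cell had 3017 genes in basal-marked and 2261 in adult basal cells. Of the 38 cells, 7 were 1 marker under the luminal minimum. The part of these differences in the Ehf share was not tested. The basal-marked cells with Ehf had a median of 2.19% milk reads and those without it 0.139%, whose part in the result was not tested. In both-marked cells, Elf5 was detected in 21 of 27 (77.8%, 57.7 to 91.4) and Ehf in 22 (81.5%, 61.9 to 93.7).

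**Figure D4:**
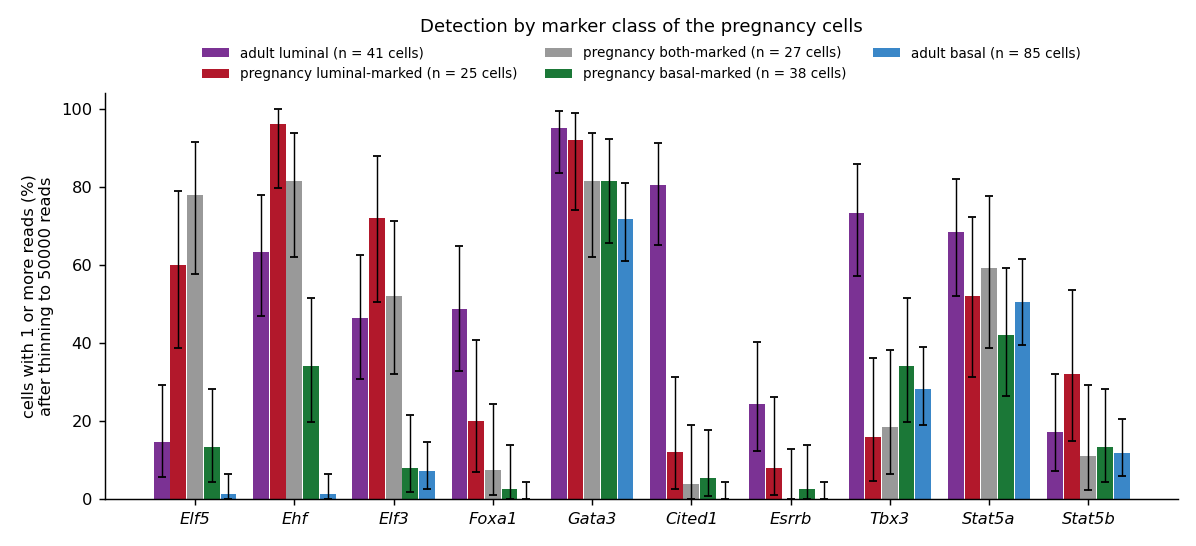
Share of cells (%, y axis) with 1 or more reads of each gene after thinning to 50000 reads, in the 3 larger marker classes of pregnancy cells and the 2 adult sorts (numbers of cells in the legend); error bars are exact 95% binomial intervals. Elf5 and Ehf are high in luminal-marked and both-marked cells, and Cited1 and Tbx3 are highest in adult luminal cells.

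Compared with adult luminal cells, 4 of the 10 genes were 4-fold or more lower in luminal-marked pregnancy cells, beside 22.3% of 13980 genes, and 0 were 4-fold or more higher, beside 9.18%. The lower genes were those found with the hormone-sensing markers. The 2 sets differed in these markers, with a median of 7 mature luminal markers in adult luminal and 2 in luminal-marked pregnancy cells. Progenitor markers had medians of 5 and 7. The part of this difference in cell mix in the ratios was not tested. Cited1 was at 889 CPM in adult and 35.0 CPM in pregnancy cells (log2 ratio -4.67, -4.86 to -4.48), Tbx3 at 219 and 10.2 CPM (-4.43, -4.81 to -4.07), Foxa1 at 279.9 and 13.8 CPM (-4.34, -4.66 to -4.03) and Esrrb at 18.7 and 4.61 CPM (-2.02, -2.61 to -1.47). The Esrrb value rested on few reads, 29 against 463, and was -1.35 with TMM factors, which scale groups on most genes, -1.49 without adult luminal cell 23 and 0.37 with cells weighted equally. Leaving out the richest pregnancy cell took Cited1 to -5.38 and Esrrb to -4.05 (without cell 70), and Foxa1 to -5.44 and Tbx3 to -6.94 (without cell 112). The median log2 ratio was -0.75 over the 10 genes and -0.73 over all genes compared. Scaling by TMM raised every ratio by 0.67.

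The ETS factors did not share that direction. Elf5 stood at 62.2 CPM in luminal-marked pregnancy cells and 33.1 CPM in adult luminal cells, a log2 ratio of 0.91 (0.73 to 1.09) that was 1.64 without adult luminal cell 17. With cells weighted equally, the 2 Elf5 levels lay closer together, at 71.1 and 58.1 CPM. Ehf was at 425 and 343 CPM (0.31, 0.25 to 0.37). Elf3, at 136 and 142 CPM, had a log2 ratio of -0.06 (-0.17 to 0.05), which was 0.61 with TMM factors. Gata3 was at 359.8 and 669.9 CPM (-0.90, -0.96 to -0.83). Stat5a had a log2 ratio of -0.59 (-0.76 to -0.43), which was 0.08 with TMM factors, and Stat5b one of 0.82 (0.56 to 1.09), which was 2.04 without adult luminal cell 38. Without pregnancy cell 79 the Stat5b level was 15.9 CPM, in place of 27.0 CPM, beside 15.3 CPM in adult luminal cells.

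Within pregnancy, 3 of the 10 genes were 4-fold or more higher in luminal-marked than in basal-marked cells, beside 10.4% of 13899 genes, and 0 were 4-fold or more lower, beside 21.8%. The median log2 ratio was 0.58 over the 10 genes and -0.48 over all genes compared. Ehf was at 425 and 59.9 CPM (log2 ratio 2.83, 2.68 to 2.98) and Elf3 at 136 and 24.1 CPM (2.50, 2.25 to 2.75, and 3.66 without pregnancy cell 101). Cited1 was at 35.0 and 5.58 CPM (2.65, 2.14 to 3.19), from 3 cells in each class, and its log2 ratio was 1.93 without pregnancy cell 70, 5.76 without pregnancy cell 98 and -3.62 when 1 marker fewer was required. Foxa1, at 13.8 and 11.5 CPM, had a log2 ratio of 0.27 (-0.19 to 0.73), which was 5.42 without pregnancy cell 98. Elf5 was at 62.2 and 25.9 CPM, a log2 ratio of 1.26 that was 3.22 without pregnancy cell 101, which held 77.3% of the basal-marked Elf5 reads. Tbx3 went the other way, at 10.2 and 30.3 CPM from 64 and 201 reads (log2 ratio -1.57), and was -4.09 without pregnancy cell 112.

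The pregnancy reads of Foxa1, Cited1 and Esrrb came mostly from a handful of cells without an Elf5 read. Luminal-marked cell 70 had 25 Foxa1, 87 Cited1 and 22 Esrrb reads, cell 73 had 0, 54 and 7, and cell 112 had 47, 79 and 0. These 3 cells had 3 basal markers, 1 under the minimum for that class, and cells 73 and 112 were at the luminal minimum of 6. Basal-marked cell 98, with 10 basal markers, had 74 Foxa1, 33 Cited1 and 19 Esrrb reads. In cells 70, 73, 112 and 98, Cited1 stood at 1612, 735, 781 and 77.5 CPM and Foxa1 at 463, 0, 465 and 174 CPM. Adult luminal cells with reads of the gene had medians of 864 CPM for Cited1 and 122 CPM for Foxa1. Over all pregnancy cells with reads, the medians were 45.6 and 16.2 CPM. All 4 cells had 0 Elf5 reads, 4 to 6 of 10 mature luminal markers, 457 to 1883 reads of the prolactin receptor gene Prlr and at most 1.36% milk reads. Cells 70, 73 and 112 were shallow, with a median of 73466 reads against 244476 in the other 22 luminal-marked cells. Cell 98 had 425919 reads. In a shallow cell 0 reads can miss a low Elf5 level, and whether Elf5 was absent was not tested. Areg, which stood at 890.2 CPM in adult luminal cells, had 0 or 1 read in each of them. The 3 richest cells held 83.0% of the pregnancy Cited1 reads, 85.4% of the Foxa1 reads and 94.1% of the Esrrb reads.

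**Figure D5:**
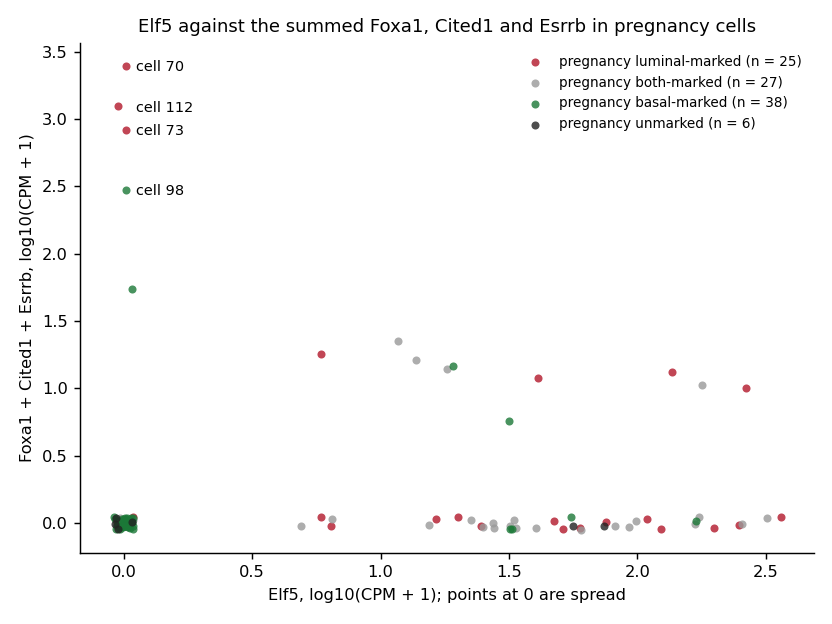
Each point is 1 of the 96 pregnancy cells, with Elf5 on the x axis and the sum of Foxa1, Cited1 and Esrrb on the y axis, both as log10(CPM + 1) before thinning, coloured by marker class. Cells 70, 73, 98 and 112 lie at the top at 0 Elf5, and most cells with Elf5 lie at or near 0 on the y axis.

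Pairs were counted in pregnancy cells in the same way. Elf5 and Cited1 were both present in 0 of 96 thinned cells (product 2.69) and in 3 cells before thinning (product 4.08). Elf5 and Esrrb shared 0 cells before and after thinning (products 2.04 and 1.34), whereas Elf5 and Foxa1 shared 3 cells after thinning (product 3.58) and 7 of the 10 Foxa1 cells before (product 5.10). All 3 cells with Esrrb had Cited1 (product 0.188). Elf5 and Ehf were both present in 40 cells (product 27.3), with 3 cells of Elf5 alone, 21 of Ehf alone and 32 of neither. Within luminal-marked cells, where 24 of 25 cells had Ehf, all 15 cells with Elf5 had Ehf as well (product 14.4). The counts were 19 in both-marked cells (product 17.1) and 4 in basal-marked cells (product 1.71).

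The pregnancy cells were also divided at title number 55, a division made after the data were seen, since the labels name no batch. Milk genes took 8.89% of reads in the 45 cells up to 55 and 31.4% in the 51 cells above. Cycling cells numbered 23 and 2, cells with 3 or more immune, endothelial or fibroblast markers 18 and 4, and the median genes per thinned cell were 3931 and 2826. The part of these differences in the values was not tested. Elf5 reads were found in 19 of the lower-numbered and 24 of the higher-numbered cells, and Ehf reads in 25 and 36. Elf5 and Ehf were both present in 18 of 45 (product 10.6) and 22 of 51 cells (product 16.9), and Elf5 and Cited1 in 0 of both. The higher-numbered cells held 261 of the 265 Cited1 reads, 156 of the 171 Foxa1 reads and 48 of the 51 Esrrb reads. Cited1 was detected in 2 and 4 cells and Esrrb in 0 and 3, while Stat5b was detected in 14 of 45 (31.1%, 18.2 to 46.6) and 3 of 51 cells (5.88%, 1.23 to 16.2).

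Other regulators of the same families and pathways were read from fixed lists. Between the adult sorts, 22.6% of all genes compared were 4-fold or more higher and 14.6% lower in luminal cells. Of 23 relatives, such as the other ETS and STAT genes, 18 were compared between the adult sorts, with 3 higher and 2 lower in luminal cells and a median log2 ratio of 0.20. Of 22 other epithelial regulators, 21 were compared, with 7 higher and 3 lower and a median of 0.77. Foxi1 had 82.1 CPM in luminal and 0 reads in basal cells, at least 9.93 on the log2 scale, Myb differed by 7.47, Grhl1 by 6.39 and Trps1 by 2.72, while Runx1 was lower in luminal cells (-2.52). Of the 14 genes of prolactin and STAT5 signalling, 4 were higher and 2 lower (median 0.60). They included Prlr (5730 and 1.48 CPM, log2 ratio 11.92), Tnfsf11, the ligand RANKL (at least 8.10), and the feedback inhibitor Socs3 (-2.44). Of 10 partners of steroid receptors, 9 were compared, with 4 higher and 0 lower (median 1.65), namely Calca, Areg, Wnt4 and the oestrogen receptor gene Esr1 (111 and 3.70 CPM).

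In luminal-marked pregnancy cells against adult luminal cells, where 22.3% of all genes compared were 4-fold or more lower and 9.18% higher, 6 of the 10 steroid receptor partners were lower and 0 higher, with a median log2 ratio of -2.77. Calca, with 1 read in the pregnancy cells, differed by -11.58 (-16.88 to -9.10), Areg by -8.13, the progesterone receptor gene Pgr by -4.49 and Wnt4 by -3.27. Here too the sets differed in mature luminal markers, whose part in the ratios was not tested. Of the 14 genes of prolactin and STAT5 signalling, 3 were lower and 0 higher (median -0.79), with Tnfsf11 at -4.18 and Prlr at -3.43. Of 19 other regulators compared, 6 were lower and 1 higher (median -0.22), with Foxi1, from 3 reads, at -7.43 (-9.71 to -5.88), Myb at -2.60 and Bcl11a higher by 3.52, and of 18 relatives 1 was lower and 2 higher (median -0.23). Within pregnancy, Xbp1 (2.12), Ovol1 (2.11) and Bcl11a (7.37, 4.87 to 12.68, with 1 read in basal-marked cells) were higher in luminal-marked than in basal-marked cells. Socs3 (-4.73), Ets1 (-3.92), Pgr (-3.44), Runx1 (-2.42) and Calca (-7.04, -12.36 to -4.54, from 1 read in luminal-marked cells) were lower. Beside 10.4% of all genes compared higher and 21.8% lower, 1 of 19 relatives, 3 of 18 other regulators, 0 of 13 prolactin genes and 1 of 10 steroid partners were higher there, and 3, 3, 2 and 4 were lower. Basal-marked cells held 377 Pgr and 139 Calca reads, and whether 1 cell held most of them was not examined. Basal-marked cell 98 held 1883 of the 2307 Prlr reads of its class.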

How the data were processed

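Gene counts were read from the table of each of 278 single-cell libraries (Fluidigm C1, Nextera XT, NextSeq). The authors aligned read pairs to mm10 with Subread (version 1.4.6 in the submitters' processing notes) and assigned them to genes with featureCounts, and the deposited values are unnormalised counts for each Entrez ID, without molecular identifiers, beside a gene length. The combined table repeated these values and was left aside. Groups came from the cell titles, and cell numbers are those of the titles. Symbols and coordinates came from the GRCm38.p6 RefSeq gene table. Removed were 1904 IDs that had no symbol there (1.20% of reads), the 15 mitochondrial genes (9.54%) and, by symbol, 125 ribosomal protein genes (1.72%).

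Cells needed 50000 reads in kept genes. No 2 libraries were identical. Cells were thinned once, without replacement, with a fixed seed. Genes entered the comparisons over all genes with 1 CPM or more in 3 or more cells, and a difference was counted from 4-fold. A sum of 0 was set to 3 reads for a bound, and no ratio was given where both sums were at or under it. From each list, up to 4 genes past 4-fold were named where the higher group reached 20 CPM, by size of ratio, with up to 3 alike genes per member detected in 20% or more of adult luminal cells. Likeness used cells before thinning. A few genes that this rule names are not reported here. The members and lists were chosen with earlier results of these data known. Alternatives were TMM factors (edgeR 4.0.16), cells weighted equally, milk genes left out, other read minimums, folds and marker minimums, and single cells left out. Ratios, intervals and thinning were tested on simulated data. Python 3.11.15, numpy 2.4.6, scipy 1.17.1, pandas 2.3.3 and R 4.3.3 were used.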

Additional observations from a re-analysis of the deposited data

Results flagged for a closer look

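Cells under the minimum of 50000 reads, which entered no comparison, also held reads of the 10 genes. There were 274 such reads in 2 adult luminal cells, 241 in 14 of 27 adult basal cells and 618 in 17 of 27 pregnancy cells.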

How the results depend on the processing

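No paired analysis was possible because no result came from a test and the numbers in the titles only name cells. The 5 genes higher in adult luminal cells became 8 when 2-fold was enough. The 0 genes higher in luminal-marked pregnancy than adult luminal cells became 1 with cells weighted equally, and 1 with the richest cell of each gene left out, an alternative added after the data were seen. The 3 genes higher in luminal-marked than basal-marked pregnancy cells became 6 with cells weighted equally and 1 with 1 marker more required. With cells weighted equally, the Esrrb log2 ratio of luminal-marked pregnancy over adult luminal cells turned to 0.37, and with 1 marker fewer required, the Cited1 log2 ratio of luminal-marked over basal-marked cells turned to -3.62. The causes were not tested. TMM factors moved every ratio of adult luminal over adult basal by -0.30, of luminal-marked pregnancy over adult luminal by 0.67 and of luminal-marked over basal-marked by 0.38 on the log2 scale. Requiring 5 reads moved 16 of 30 detection shares beyond their interval, leaving cells unthinned 9, and removing milk genes together with thinning to 25000 reads 3. Weighting cells equally moved 25 of 30 summed levels beyond their counting interval and TMM factors 19. Depth limits the rare genes, and in adult basal cells 1 cell held most or all reads of each of Elf5, Ehf, Elf3 and Stat5b.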
